A study of Homo sapiens with 6 samples.

Results

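S100 proteins are small proteins, most of which bind calcium. Signals of 10 of their genes were read in SUM-LM1 breast cancer cells with and without activin B. These genes were S100A2, S100A4, S100A6, S100A8, S100A9, S100A10, S100A11, S100A13, S100A14 and S100A16. The members were taken by gene symbol: every probe set that the platform annotation assigns to 1 of these symbols was used, which gave 14 probe sets for 10 genes out of 54613 probe sets and 19775 genes. SUM-LM1 is a lung-metastatic derivative of the human breast cancer line SUM159. In both groups the cells were seeded at 12500 per ml as floating cultures on low-attachment plates in HuMEC medium with BSA, and were given either recombinant human activin B at 50 ng/ml or the BSA/PBS vehicle for 6 h. Each group held 3 biological replicates of this single line, and labelled RNA made from 50 ng was hybridized to Affymetrix U133 Plus 2.0 arrays. Values are log2 signals of probe sets after robust multiarray averaging (RMA), so a difference of 1 is a 2-fold difference.

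S100 proteins carry a pair of EF-hand motifs, loops that bind calcium in most members. Most form dimers, and many of these expose a binding face for partner proteins once calcium is bound. Inside the cell they act on the cytoskeleton, the membrane and annexins. Several are also released, and S100A8 with S100A9 forms calprotectin, a complex best known from neutrophils and monocytes that signals through the receptors TLR4 and AGER. In breast cancer the family is known for S100A4, which binds non-muscle myosin and is linked with metastasis. Activin B is a dimer of the INHBB product and a ligand of the TGF-beta family, so the comparison asked whether 6 h of this ligand moved S100 transcripts in the cancer cells.

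No S100 probe set passed an adjusted p under 0.05 in the limma fit (0 of 14), where 0.121% of all probe sets passed. The largest difference was that of S100A8, whose brighter probe set was 1.30-fold lower with activin B (log2 change -0.38 ± 0.07, SE; adjusted p = 0.0867). S100A4 followed with a 1.18-fold lower signal (log2 change -0.23 ± 0.07, SE; adjusted p = 0.480). For the remaining genes the log2 change of the representing probe set, the brighter one where a gene had several, lay between -0.08 and 0.04. In the same arrays ID1, ID2, ID3, DLX2, SMAD7 and SKIL, known targets or feedback genes of this pathway, all rose, by 0.63 to 2.85 on the log2 scale. These genes were chosen with earlier results of these data known, so their rise describes the response and is not an independent check.

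**Figure D1:**
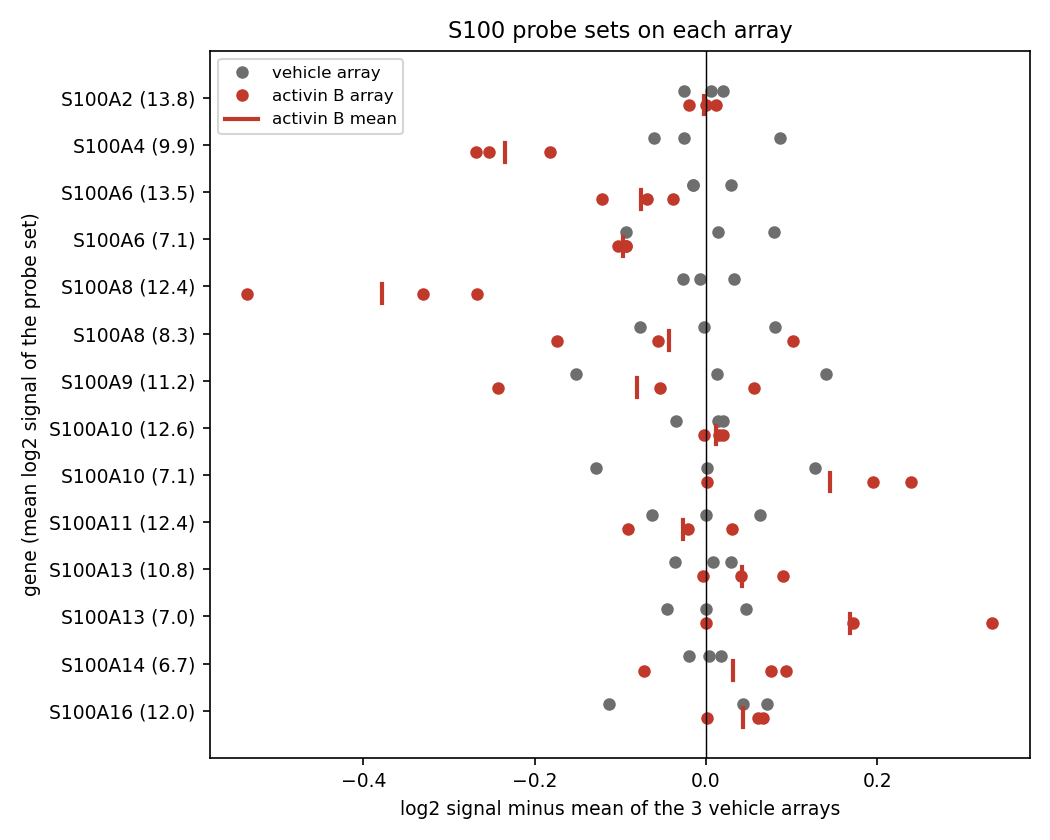
All 14 S100 probe sets, drawn as the log2 distance of every array from the vehicle mean (n = 3), with the mean log2 signal of each probe set in brackets. Points are arrays, grey for vehicle and red for activin B, and red bars are activin B means; the activin B points of S100A8 (brighter set), S100A4 and S100A6 (brighter set) all lie to the left of the vehicle points.

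At an unadjusted p under 0.05 the count was 3 of 14 S100 probe sets, against 5.28% of all probe sets. These 3 were the brighter set of S100A8 (unadjusted p = 0.000124), the set of S100A4 (unadjusted p = 0.00268) and the dimmer set of S100A13 (unadjusted p = 0.04999), the last one a higher signal. In 3 of 14 the groups did not overlap, which held for 9.79% of all probe sets. In each of these 3, the brighter sets of S100A8 and S100A6 and the set of S100A4, activin B was the lower group. The median log2 change over the 14 sets was -0.01, with 8 sets below 0 and 6 above, beside a median of -0.00 over all probe sets.

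Most of the family was bright on these arrays. Of the 14 probe sets, 9 lay in the brightest 10% of all probe sets, and these were the representing sets of every gene other than S100A14. Signals of different probe sets depend on their probes as well as on the RNA, so they give no order of transcript levels between genes. S100A14 had a mean signal of 6.71, at the array median, which was between 6.69 and 6.70 on every array.

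**Figure D2:**
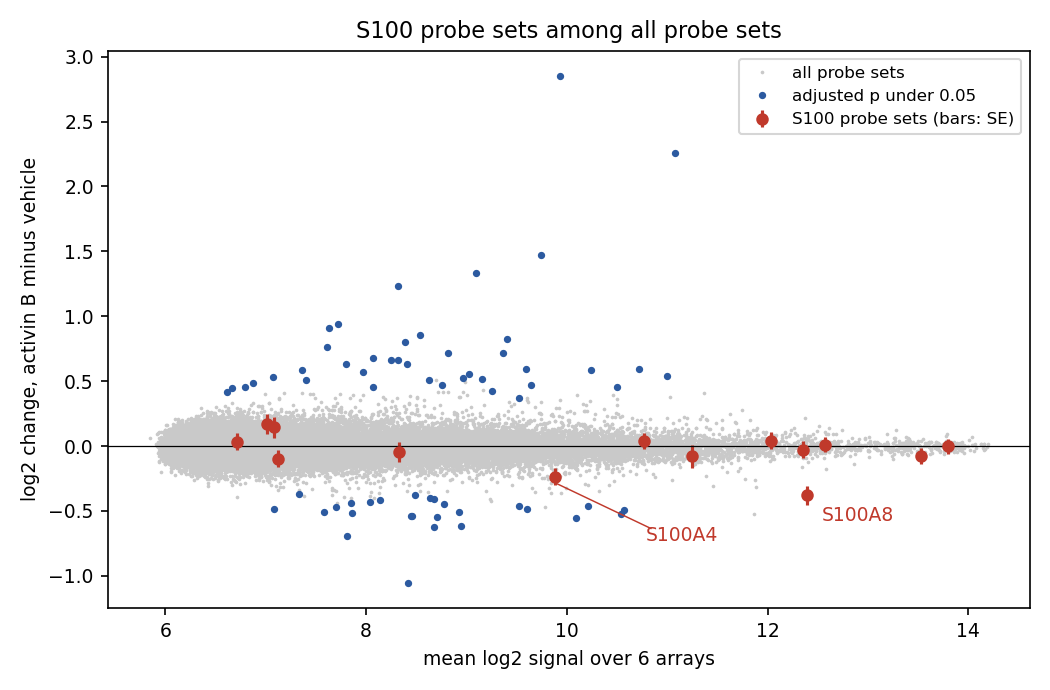
Log2 change, activin B minus vehicle, against mean log2 signal for all 54613 probe sets in grey, those at an adjusted p under 0.05 in blue, and the 14 S100 sets in red with the standard error as bars. The brighter S100A8 set at -0.38 stands below the narrow grey band at its signal, and the other bright S100 sets lie within the band.

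The promoter windows of the members show what sequence stands before their starts, and 3 are printed because they belong to the members with the lowest values and to the partner of S100A8. The sequences are from RefSeq on GRCh38.p14 and hold the 250 bases before the annotated start, 5′ to 3′ on the strand of the gene. Capitals mark CAGAC, the core of SMAD-binding elements, in either orientation, and the E-box CANNTG, which basic helix-loop-helix factors bind and whose binding the ID proteins block. S100A4 lies on the minus strand at chr1:153545807-153546056, S100A8 on the minus strand at chr1:153391189-153391438 (the most distant of 3 listed starts) and S100A9 on the plus strand at chr1:153357604-153357853.
S100A4: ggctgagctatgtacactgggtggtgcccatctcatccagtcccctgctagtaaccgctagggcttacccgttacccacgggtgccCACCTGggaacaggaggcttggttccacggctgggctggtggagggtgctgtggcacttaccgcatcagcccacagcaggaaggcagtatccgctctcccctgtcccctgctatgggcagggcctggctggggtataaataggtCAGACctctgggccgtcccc
S100A8: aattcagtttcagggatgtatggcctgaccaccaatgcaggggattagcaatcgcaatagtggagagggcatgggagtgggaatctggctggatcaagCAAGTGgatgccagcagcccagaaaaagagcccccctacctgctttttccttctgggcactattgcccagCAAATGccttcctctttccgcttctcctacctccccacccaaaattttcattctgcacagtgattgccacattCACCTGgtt
S100A9: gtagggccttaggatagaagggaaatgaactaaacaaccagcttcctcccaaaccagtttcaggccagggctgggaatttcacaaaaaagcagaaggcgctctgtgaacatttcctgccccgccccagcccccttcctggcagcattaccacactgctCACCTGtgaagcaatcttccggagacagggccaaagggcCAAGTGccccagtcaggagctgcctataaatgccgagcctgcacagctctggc

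In these windows CAGAC occurred 1 time for S100A4 and 0 times for S100A8 and S100A9, and CANNTG 1, 3 and 2 times. The window of the most downstream S100A8 start, not printed, held CAGAC 1 time. All 10 member genes had a promoter in the table, with 16 windows in all because several genes have more than 1 start and some windows overlap. CAGAC in either orientation was found in 9 of 16 member windows (56.2%), against 38.0% of 35116 windows of all genes, and CANNTG in 13 (81.2%), against 61.8%. The GC-rich motif GGCGCC, bound by SMAD1 and SMAD5, was in 0 of 16 windows, against 16.4%. The AP-1 motif TGANTCA was in 1 (6.25%), an upstream window of S100A2, against 6.57%. All motifs were searched on both strands. Such matches describe letters in the window and show no binding, and no binding was measured here.

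S100A8 and S100A9 encode the subunits of calprotectin. The brighter S100A8 set read 12.55, 12.61 and 12.57 in vehicle replicates 1, 2 and 3, and 12.25, 12.31 and 12.04 in activin B replicates 1, 2 and 3. Every activin B array was below every vehicle array, and replicate 3 of activin B was the lowest. The means were 12.58 ± 0.03 and 12.20 ± 0.14 (SD, n = 3), and the 95% interval of the log2 change ran from -0.53 to -0.22, that is 1.17-fold to 1.45-fold lower. Without activin B replicate 3, an array that stood apart from the others on the first principal component, the log2 change was -0.30 (adjusted p = 0.219). Leaving out any other single array also missed the threshold, with an adjusted p from 0.111 to 0.503, the highest without vehicle replicate 2 (log2 change -0.36). With a prior for the spread that follows the signal, the limma trend option, the same change passed the threshold (adjusted p = 0.00150). It also passed with the replicate number as a block in the limma fit (adjusted p = 0.0392).

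The dimmer S100A8 set gave overlapping groups. It read 8.43, 8.34 and 8.27 in vehicle and 8.17, 8.29 and 8.45 in activin B (log2 change -0.04 ± 0.08, SE; adjusted p = 0.999). Within each array, the brighter set lay above the dimmer one by 4.13, 4.27 and 4.30 in vehicle and by 4.08, 4.02 and 3.60 in activin B. The mean difference between groups was -0.34 and the groups did not overlap (exact permutation test, two-sided, p = 0.1, the smallest that 3 against 3 arrays allow; 0.35 after adjustment over 7 pairs of probe sets). The identifier of the brighter set carries the suffix that the manufacturer gives to sets shared by several transcripts, and the annotation lists no accession for the dimmer set. With both sets averaged, S100A8 had a log2 change of -0.21 (adjusted p = 0.254).

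S100A9, the partner of S100A8, had a signal of 11.13, 11.30 and 11.43 in vehicle and of 11.23, 11.04 and 11.34 in activin B. The groups overlapped, with means of 11.29 ± 0.15 and 11.21 ± 0.15 (SD, n = 3) and a log2 change of -0.08 ± 0.09 (SE; adjusted p = 0.995). Its spread was wider than that of other bright members, and its 95% interval ran from -0.27 to 0.10. The excess of S100A8 over S100A9 within an array was 1.29 ± 0.14 (vehicle) and 0.99 ± 0.28 (activin B; SD, n = 3). These overlapped, with a difference of -0.30 (exact permutation test, two-sided, p = 0.2; 0.42 after adjustment over 7 pairs). With 3 against 3 arrays this test cannot go below 0.1, so it could not have passed and leaves undecided whether the calprotectin subunits differed in response.

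**Figure D3:**
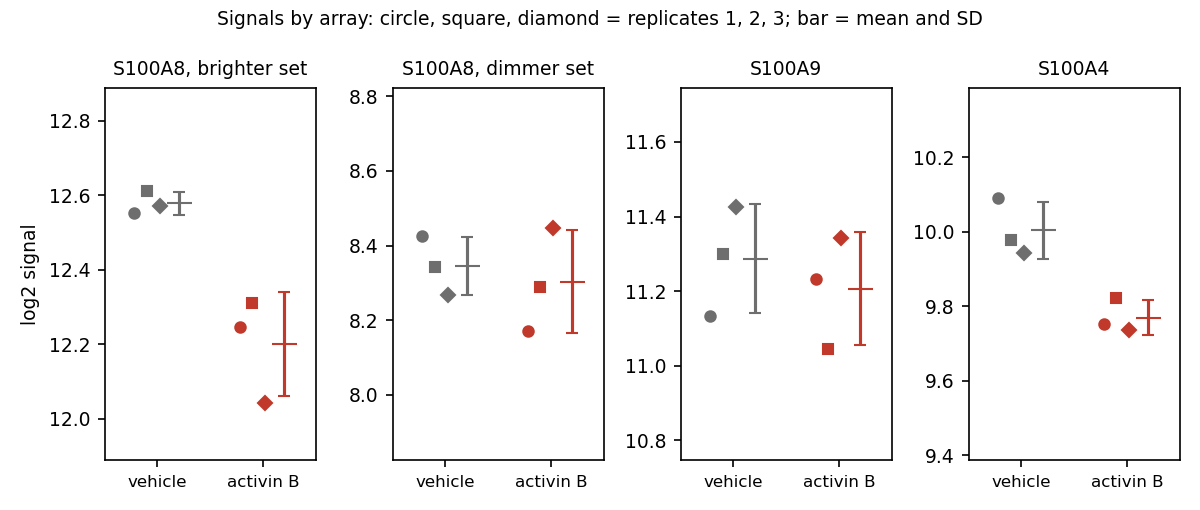
Log2 signals of both S100A8 probe sets, S100A9 and S100A4 on each array, grey for vehicle and red for activin B, with mean and SD beside the points; each panel spans 1 log2 unit. The groups are apart for the brighter S100A8 set and for S100A4 and overlap in the panels of the dimmer S100A8 set and S100A9.

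Myeloid cells are the known source of calprotectin in tissue, so leukocyte markers were read as well. None of 11 measured markers passed in the limma fit, 0 had an unadjusted p under 0.05, and their median log2 change was 0.04. For this and the next marker lists, the share of all probe sets at an unadjusted p under 0.05 was 5.28%. The summed linear signal of the list ran from 1276 to 1332 in vehicle and from 1286 to 1390 in activin B. Of the 11 markers, 3 had mean signals above the array median, LCP1, CSF3R and FCER1G, with vehicle means of 8.56, 6.92 and 6.73. PTPRC, ITGAM, CD14, TYROBP and FCN1 were among those below it. None of 8 mesenchymal markers passed (0 at an unadjusted p under 0.05; median log2 change 0.05), and VIM, CD44 and FN1 were bright, with vehicle means of 13.89, 12.50 and 12.60. None of 12 keratinocyte and luminal epithelial markers passed (2 at an unadjusted p under 0.05; median 0.03), and 8 of the 12 lay above the array median. KRT18, KRT14 and KRT10 were bright, with vehicle means of 12.09, 11.58 and 10.66, while EPCAM and CDH1 were dim at 6.20 and 6.27. Their summed linear signal ran from 10410 to 10590 in vehicle and from 10200 to 10500 in activin B. None of 8 endothelial markers passed (1 at an unadjusted p under 0.05; median -0.08), with sums from 822 to 895 in vehicle and from 775 to 827 in activin B.

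S100A4, which binds non-muscle myosin IIA and is known for promoting cell motility, was read by 1 probe set. Its signal was 10.09, 9.98 and 9.94 in vehicle and 9.75, 9.82 and 9.74 in activin B. All activin B arrays lay below all vehicle arrays. The means were 10.004 ± 0.08 and 9.77 ± 0.05 (SD, n = 3), with a 95% interval of the log2 change from -0.37 to -0.10, or 1.07-fold to 1.30-fold lower. It passed the threshold under none of the alternatives tried, with an adjusted p from 0.260 to 0.999. MYH9, the heavy chain of the myosin partner, differed by 0.00 ± 0.06 (log2, SE; adjusted p = 0.999).

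S100A6, also called calcyclin, is a growth-related member whose partner is CACYBP. Its brighter set read 13.59, 13.55 and 13.55 in vehicle and 13.50, 13.44 and 13.53 in activin B. Here too the groups were apart, by a log2 change of only -0.08 ± 0.06 (SE; adjusted p = 0.995). The dimmer set gave -0.10 ± 0.06 (SE; adjusted p = 0.995), with overlapping groups, and the gap between both sets differed by 0.02 between groups. CACYBP had -0.06 ± 0.07 (SE; adjusted p = 0.995).

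S100A10 and S100A11 are members that dock onto annexins. S100A10 forms a tetramer with ANXA2 at the plasma membrane, where it binds tissue plasminogen activator. Its brighter set read 12.53, 12.58 and 12.59 in vehicle and 12.58, 12.59 and 12.57 in activin B, with full overlap (log2 change 0.01 ± 0.06, SE; adjusted p = 0.999). For ANXA2 the change was 0.01 ± 0.06 (log2, SE; adjusted p = 0.999), and the distance between both signals within an array was -1.09 ± 0.05 (vehicle) and -1.08 ± 0.02 (activin B; SD, n = 3), with p = 1 (two-sided exact permutation test). The dimmer S100A10 set, at 7.02 in vehicle, differed by 0.15 ± 0.08 (log2, SE; adjusted p = 0.977). S100A11, a partner of ANXA1, read 12.43, 12.37 and 12.31 in vehicle and 12.40, 12.35 and 12.28 in activin B. The groups overlapped almost entirely (log2 change -0.03 ± 0.06, SE; adjusted p = 0.999), and ANXA1 had -0.04 ± 0.06 (SE; adjusted p = 0.999).

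S100A2, known from basal epithelial cells, had the most even signal among the members, between 13.78 and 13.82 on all 6 arrays (log2 change -0.00 ± 0.06, SE; adjusted p = 0.999). S100A13, which takes part in the release of FGF1 and IL1A, read 10.71, 10.76 and 10.78 in vehicle and 10.79, 10.84 and 10.74 in activin B on its brighter set. The groups overlapped there (log2 change 0.04 ± 0.06, SE; adjusted p = 0.999). The dimmer set was at 6.98, 6.89 and 6.93 in vehicle and 6.93, 7.27 and 7.10 in activin B. Replicate 1 of activin B lay inside the vehicle range, and the mean difference was 0.17 ± 0.08 (log2, SE; adjusted p = 0.946). S100A16 read 11.90, 12.08 and 12.05 in vehicle and 12.08, 12.07 and 12.01 in activin B (log2 change 0.04 ± 0.07, SE; adjusted p = 0.999). S100A14, an epithelial member, read 6.70, 6.67 and 6.71 in vehicle and 6.62, 6.77 and 6.79 in activin B (log2 change 0.03 ± 0.07, SE; adjusted p = 0.999), and at this dim signal a small change could be missed.

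A missed threshold does not show that a gene was unaffected, so the intervals are given as well. For the representing probe sets of the 7 genes other than S100A8, S100A4 and S100A9, the widest bounds of the 95% intervals were 1.15-fold lower and 1.14-fold higher with activin B. The bound of S100A9 reached 1.20-fold lower. The dimmer sets of S100A6, S100A10 and S100A13 had wider bounds, of -0.23, 0.32 and 0.34 on the log2 scale. None of the 14 intervals reached a 2-fold difference in either direction, the outermost bounds being -0.53 and 0.34 on the log2 scale. RMA brings the arrays to 1 common distribution and array signals can compress differences, so folds in RNA may be larger than those read here. The set of S100A2 and the brighter set of S100A6 exceeded 99.9% and 99.8% of probe sets. Whether signals this high still follow RNA amounts was not tested.

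All 10 member genes lie on chromosome 1, and their order in the RefSeq annotation allowed neighbors to be compared. S100A10 and S100A11 come first, followed at a distance by S100A9, S100A12, S100A8, S100A7A, S100A7, S100A6, S100A5, S100A4, S100A3, S100A2, S100A16, S100A14, S100A13 and S100A1, with no other protein-coding gene starting between S100A9 and S100A1. The brighter S100A8 set at -0.38 stood between S100A12 at -0.14 ± 0.06 and S100A7A at -0.00 ± 0.07 (log2 change and SE). S100A4 at -0.23 stood between S100A5 at -0.06 ± 0.07 and S100A3 at -0.10 ± 0.09. These neighbors were dim, with mean signals from 6.38 to 7.63, and none of them passed. Differences between neighbors were not tested.

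**Figure D4:**
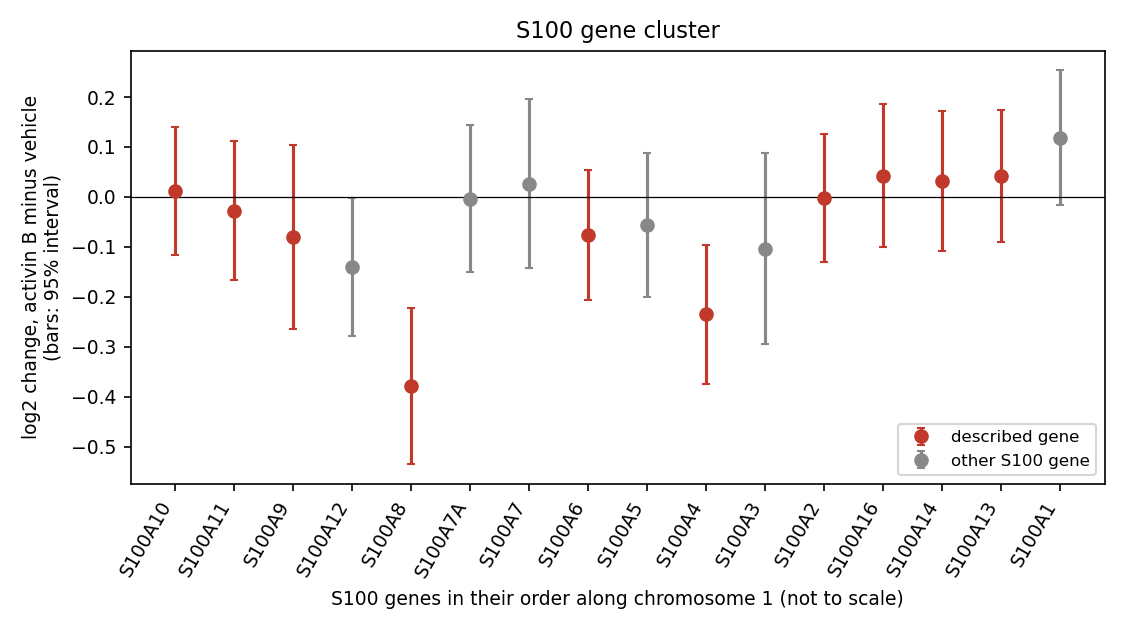
Log2 change, activin B minus vehicle, of the representing probe set of 16 S100 genes in their order along chromosome 1, with the 95% interval as bars; the axis is not to scale. Members are red and other S100 genes grey, and S100A8 at -0.38 and S100A4 at -0.23 are the members whose intervals do not include 0. The interval of S100A12, drawn in grey, also excludes 0, running from -0.28 to -0.0016.

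Other S100 genes on the array were dimmer than most members, and none of 10 passed in the limma fit. An unadjusted p under 0.05 was reached by 3 of 10, S100P, S100G and S100A12, against 5.28% of all probe sets. With all 6 arrays S100P had the largest difference, with a mean of 7.46 ± 0.16 for vehicle against 7.68 ± 0.13 for activin B (SD, n = 3; log2 change 0.23 ± 0.09, SE; adjusted p = 0.865). Without vehicle replicate 1 its log2 change was 0.14, smaller in size than the -0.16 of S100G. S100G, S100A12 and S100A1 had log2 changes of -0.16, -0.14 and 0.12 (adjusted p = 0.918, 0.942 and 0.962). S100G was dim and read the same value, 6.45, on all 3 vehicle arrays (SD 0), so its vehicle spread is not informative. For S100B, S100Z, S100A3, S100A5, S100A7 and S100A7A the changes lay between -0.10 and 0.06. Only S100P, S100A3 and S100A1 exceeded the median signal of all probe sets. None of 12 genes of the neighboring fused S100 and cornified envelope family passed either (0 at an unadjusted p under 0.05), among them RPTN, LCE3D, SPRR1B and LORICRIN with log2 changes of -0.09, 0.09, -0.08 and -0.08.

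Partners and receptors of S100 proteins were read as a list of 28 measured genes, none of which passed in the limma fit. Among them 4 had an unadjusted p under 0.05, against 5.28% of all probe sets. The median log2 change of the 28 was 0.01, beside -0.00 over all genes. PLAT, the tissue plasminogen activator that S100A10 binds, had a mean of 11.50 ± 0.04 for vehicle and of 11.27 ± 0.06 for activin B (SD, n = 3), a log2 change of -0.23 ± 0.06 (SE; adjusted p = 0.483) with the groups apart. FGF1 and IL1A, cargo of the S100A13 release pathway, differed by -0.20 ± 0.07 and 0.20 ± 0.09 (log2, SE; adjusted p = 0.757 and 0.942). TPM1, a tropomyosin, had 0.14 ± 0.06 (SE; adjusted p = 0.934). The calprotectin receptors TLR4 and AGER had -0.04 and -0.00 (adjusted p = 0.999 for both), with AGER dim at 6.47 in both groups.

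Of 15 measured genes listed as regulators of S100 genes, 1 passed in the limma fit, TCF4, which rose, where 0.192% of all genes passed. At an unadjusted p under 0.05 there were 5 of the 15, 1 higher and 4 lower, against 5.28% of all probe sets. TCF4 went from 9.34 ± 0.09 to 9.71 ± 0.02 (SD, n = 3; log2 change 0.37 ± 0.07, SE; adjusted p = 0.0476). This symbol stands for E2-2, a basic helix-loop-helix E protein, and not for TCF7L2, the Wnt pathway factor also called TCF-4 that is known to drive S100A4. The list took TCF4 by its symbol, and no link of E2-2 to S100 genes is claimed here. TCF7L2, looked up after the values were seen, differed by 0.03 ± 0.08 (log2, SE; adjusted p = 0.999). The call of TCF4 ended without any 1 array, vehicle replicates 1, 2 and 3 (adjusted p = 0.278, 0.101 and 0.193) or activin B replicates 1, 2 and 3 (adjusted p = 0.100, 0.290 and 0.118), and with all its probe sets averaged (log2 change 0.25; adjusted p = 0.271). It also ended when dim probe sets were left out (adjusted p = 0.0506 and 0.0660). The 4 lower ones, RELA, SP1, LEF1 and FOS, had log2 changes of -0.15, -0.14, -0.18 and -0.18 (adjusted p = 0.917, 0.928, 0.928 and 0.934). CEBPB, a known activator of S100A8 and S100A9, was bright at 12.81 ± 0.05 and 12.87 ± 0.02 (SD, n = 3; log2 change 0.06 ± 0.06, SE; adjusted p = 0.995).

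Genes with the pattern most like that of S100A8 across the 6 arrays were sought among 12643 other genes above the median signal. KCTD12 (Pearson r = 0.992), VKORC1 (r = 0.987) and NCOA5 (r = 0.979) came closest. They differed between groups by -0.32 ± 0.07, -0.06 ± 0.06 and -0.11 ± 0.06 (log2, SE; adjusted p = 0.192, 0.995 and 0.976). The 6 points share their arrays and both groups, and the highest of so many correlations is given as a description only.

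The arrays themselves were alike. Correlations between them ran from 0.993 to 0.996, and none was identical to another. Activin B replicate 3 had a first principal component score of 21.7, with the other arrays between -10.6 and 5.70, and this component held 29.5% of the variance. The 6 probe sets of the thr control spike read higher in the activin B arrays, with log2 differences of 0.29 to 0.54, and their part in the S100 values was not tested.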

How the data were processed

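SUM-LM1 cells were profiled on 6 Affymetrix U133 Plus 2.0 arrays, and groups and replicate numbers came from the sample titles. The authors ran RMA in Chipster on their scanner files, and the deposited values are log2 signals of probe sets. This equalizes the distributions of the arrays and removes any shift common to most transcripts. After 62 control sets were left out, 54613 probe sets remained, of which 41091 carried 1 gene symbol, 1801 several and 11721 none here. Symbols were checked by gene identifier against RefSeq (GRCh38.p14), which changed 0. A gene was represented by its brightest probe set over all arrays, and every S100 probe set was also read singly.

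Groups were compared with limma 3.58.1 in R 4.3.3 (lmFit and eBayes, with 4 residual degrees of freedom and 10.8 from the prior), the kind of test that the methods name, with Benjamini-Hochberg adjustment over all 54613 probe sets and a threshold of 0.05. Within-array differences of 7 pairs of probe sets, chosen after values were seen, were tested exactly over the 20 labelings of the arrays. The 10 gene lists held 7 entries without a matched probe set, which were not analysed here. Lists were described by counts and medians, with no set test. The members and lists were chosen with earlier results of these data known. Named were all S100 genes and the 3 genes most like the S100 gene of smallest p. Outside the cell type marker lists, the called genes and up to 4 list members with the smallest p were named. The cell type markers and other names were not picked by p and were chosen after values were seen.

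The fit was tested on simulated data. Tried as alternatives were a replicate block, other normalizations, priors, array weights, filters on dim probe sets, other probe set rules and leaving out each array. The number of arrays limits the precision, and p values cover only how these 6 samples vary. Figures were drawn with matplotlib 3.10.9.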

Additional observations from a re-analysis of the deposited data

How the results depend on the processing

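No S100 probe set passed under the alternatives tried, except that 1 did, the brighter set of S100A8, with the replicate block (log2 change -0.38, adjusted p = 0.0392) and with the trend option (-0.38, adjusted p = 0.00150). Deviations of same-numbered samples correlated at 0.162, 0.0410 and 0.192, all positive. The titles number the replicates but state no pairing, and the main fit did not pair the samples. All 6 arrays correlated best with their own number, a hint from the data and not the design, and the block raised the count of called probe sets from 66 to 97. With 1 array left out this count ran from 32 (without vehicle replicate 2) to 63. Over the alternatives the S100A8 change ran from -0.43 to -0.04 (adjusted p from 0.00150 to 0.999), the value nearest 0 being that of the dimmer set, read where sets with a shared-transcript suffix were left out. The median change of the S100 sets was -0.0351 without sets of a mean under 7.5 and ran from -0.0133 to 0.00364 with 1 array left out. With 1 array left out, 3 to 5 S100 sets had groups apart, 5 without activin B replicate 1. Changes near 0 turned sign. With 1 array left out they ran from -0.0155 to 0.00728 for S100A2, -0.156 to 0.00123 for S100A9, -0.00602 to 0.0214 for S100A10, -0.0589 to 0.00452 for S100A11, -0.0140 to 0.0782 for S100A16, -0.0373 to 0.0943 for S100A7 and -0.0700 to 0.0375 for S100A7A. With median centring S100A2 had 0.00144 and S100A7A 0.000669, with array weights S100A7 had -0.00761, and with all probe sets averaged S100A7A had 0.0211. The cause was not tested. The rise of SKIL did not pass with all its probe sets averaged (adjusted p = 0.413).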
